A study of Mus musculus with 24 samples.

Results

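Gene expression in prostate organoids labelled as Brca1 knockout (KO) was compared with that in wild-type (WT) organoids, both cultured without dihydrotestosterone (DHT), the potent androgen made from testosterone. The comparison takes the 3 KO and the 3 WT organoid libraries whose titles say minus DHT, 6 of the 24 libraries of the series, and all 15427 genes that passed a low-count filter. The KO group carries the genotype label Brca1-/-, and the WT group carries the wild-type label. Which part of the gene was deleted, how, and in which cells, and how many mice or cultures gave each group, are not given in the sources used here. Both groups began as dissociated cells from the anterior prostate lobes of mice aged 3 months and were grown in Matrigel. Their medium held B27, Noggin, R-spondin, EGF, Y27632 and A83-01, a blocker of TGF beta type I receptors, so that pathway was inhibited in KO and WT organoids alike. The series also holds heterozygous (HET) organoids, organoids with DHT, and prostate tissue. It asks how loss of 1 or both copies of Brca1 bears on prostate cells deprived of androgen.

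Brca1 encodes a ubiquitin ligase subunit that is needed to repair double-strand DNA breaks by homologous recombination, and it also has roles in transcription and in cell cycle checkpoints. Prostate epithelium consists of luminal cells, which secrete and depend on androgens, and basal cells, which rest on the basement membrane. Organoids of mouse prostate in this kind of medium hold both types. The culture is designed to grow epithelium rather than stroma.

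RNA was measured by sequencing, and levels are given as CPM, the estimated reads of a gene scaled to a common library total, after the TMM method of edgeR. The KO libraries held 25152068, 46508516 and 46615818 estimated reads in genes, and the WT libraries 52484435, 47678372 and 45461430. KO library 1 stood apart on the first principal component of the 18 organoid libraries, and mitochondrial genes took 10.01% of its reads, against 4.173% and 2.614% in the other KO libraries and 2.869%, 3.103% and 5.063% in the WT libraries. HET library 1 without DHT stood at the same place on that component, and WT library 1 with DHT stood apart on the second. Both cultures read as prostate epithelium. The 18 luminal markers summed to 9210 to 9400 CPM in KO and 9100 to 9600 CPM in WT libraries, and the 23 basal markers to 7270 to 9870 CPM in KO and 7500 to 9940 CPM in WT libraries. Markers of stroma summed to 22.6 to 31.2 CPM in KO and 27.3 to 33.3 CPM in WT libraries, of endothelium to 3.63 to 5.74 CPM in KO and 3.46 to 5.42 CPM in WT libraries, and of leukocytes to 48.2 to 63.4 CPM in KO and 42.5 to 68.2 CPM in WT libraries. In bulk samples, fewer cells of a type and less RNA per cell cannot be told apart. The p-values measure the spread between libraries within groups, estimated over all 18 organoid libraries, which may be partly technical.

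Of the 15427 genes, 741 differed between KO and WT organoids without DHT (4.8%; edgeR quasi-likelihood test, Benjamini-Hochberg adjusted p under 0.05). In KO organoids 436 genes were higher (2.83%) and 305 were lower (1.98%), and the median log2 change over all genes was 0.00. Of the 741 genes, 317 changed at least 2-fold, 226 of them upwards and 91 downwards. The 3 KO and the 3 WT libraries did not overlap for 736 of the 741, against 17% of all genes tested. An unadjusted p under 0.05 was reached by 2288 genes (14.8%). Without KO library 1 the count was 580, and leaving out any 1 of the 6 libraries gave between 412 (without WT 1) and 733 (without KO 3). It was 430 without KO 2, 439 without WT 2 and 470 without WT 3.

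**Figure D1:**
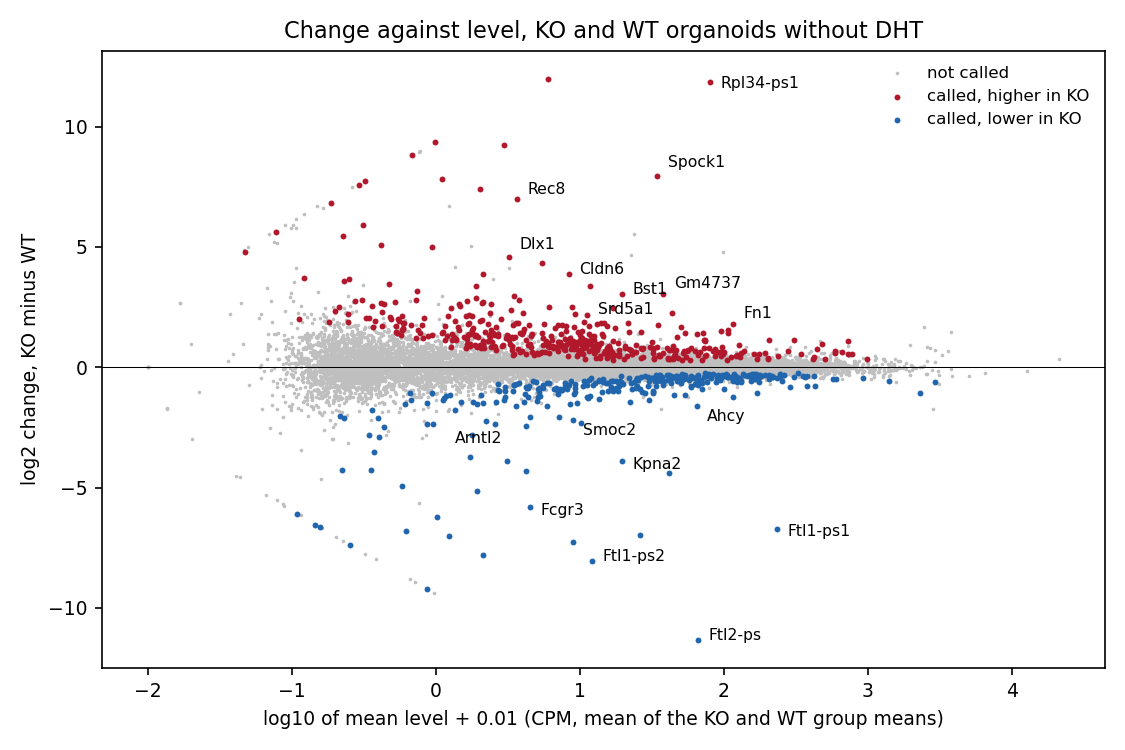
Fitted log2 change, KO minus WT, of the 15427 genes (vertical axis) against the mean level in CPM on a log10 scale (horizontal axis), for organoids without DHT. The 436 genes called higher in KO are red, the 305 called lower are blue, and gene names mark points described in the text.

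Brca1 RNA itself was at 13.1, 10.8 and 10.3 CPM in KO organoids and at 13.2, 11.2 and 14.2 CPM in WT organoids. The groups overlapped, and the log2 change was -0.18 (SE 0.13, edgeR adjusted p = 0.596). Nearly all Brca1 reads were assigned to its longest coding transcript. The RNA level is no check of the genotype label, since the sources do not name the exons removed and a transcript can persist around a deletion.

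Among genes that averaged at least 5 CPM in KO or WT organoids, the largest rise outside families of near-identical copies was that of Spock1, on chromosome 13 from 57421195 to 57908332 (GRCm38), which encodes the secreted proteoglycan testican-1. Spock1 was at 69.5, 71.8 and 65.7 CPM in KO organoids and at 0.111, 0.445 and 0.282 CPM in WT organoids. It was abundant in every KO library and nearly silent in every WT library (log2 change 7.95, SE 0.27, edgeR adjusted p = 3.53e-11). Rec8, the meiotic cohesin subunit, had 134, 345 and 451 reads in KO organoids and 4, 1 and 3 reads in WT organoids (edgeR adjusted p = 1.19e-08). The homeobox factor gene Dlx1 stood at 6.94, 6.38 and 5.27 CPM in KO and at 0.314, 0.303 and 0.152 CPM in WT organoids (log2 change 4.57, SE 0.27, edgeR adjusted p = 3.18e-08). Its neighbour Dlx2, named after its values were seen, rose with it, from the same pair of divergent homeobox genes on chromosome 2 (log2 change 3.87, SE 0.33, edgeR adjusted p = 2.53e-06). Cldn6, a tight junction claudin of embryonic epithelia, was at 11.5, 15 and 20.6 CPM in KO and at 0.738, 1.44 and 1.02 CPM in WT organoids (log2 change 3.89, SE 0.30). Each of these genes separated the 2 groups without overlap, which for all but Dlx2 the rule that named them required.

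Bst1 and Cd38 are neighbours on chromosome 5 that encode related ectoenzymes that consume NAD. Bst1 was at 33.8, 35.5 and 35.2 CPM in KO and at 3.78, 4.67 and 4.25 CPM in WT organoids (log2 change 3.04, SE 0.10, edgeR adjusted p = 3.18e-11). Cd38, named after its values were seen, rose by log2 1.70 (SE 0.16, edgeR adjusted p = 6.94e-06). The other large rises were in Ifi205 of the interferon-inducible Ifi200 family (log2 4.32, SE 0.46), the membrane protein gene Tmem45a (3.36, SE 0.20), the zinc finger factor gene Osr2 (2.97, SE 0.19), the LIM protein gene Fhl1 (2.78, SE 0.46), Kctd12b (2.50, SE 0.31) and Serpina3h (2.49, SE 0.14). Serpina3h, of the serine protease inhibitor family, is annotated as a transcribed unprocessed pseudogene. Serpina3h shares near-identical sequence with Serpina3g and Serpina3i, but here the family moved as one. The 3 genes summed to 24.4 ± 4.5 CPM in KO and 6.21 ± 0.39 CPM in WT organoids (SD, n = 3 each). Ifi205 shares near-identical sequence with Mndal, and the sum of that pair overlapped between KO and WT organoids. All of the rises named here, other than Dlx2 and Cd38 for which it was not computed, remained called without any 1 of the 6 libraries. Bst1 overlaps Fbxl5 on the genome, and without strand their shared reads cannot be told apart.

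Among the falls, Fcgr3, a low-affinity receptor for the constant part of IgG, was at 0.248, 0.167 and 0.0988 CPM in KO organoids and at 9.94, 7.56 and 9.17 CPM in WT organoids. Among the falls named for their size, which needed at least 5 CPM in KO or WT organoids, it was the largest without a near-identical copy (log2 change -5.79, SE 0.24, edgeR adjusted p = 5.46e-10). Fcgr3 is used as a myeloid marker. The pan-leukocyte gene Ptprc was near 0 in all 6 libraries. The monocyte and lysosomal gene Cd68 did not separate the groups, at 62.0, 47.0 and 48.3 CPM in KO and 66.8, 41.3 and 48.9 CPM in WT organoids. Of 16 leukocyte markers 5 were tested and 0 called, and the part of leukocytes in the fall of Fcgr3 was not tested. Sptssb, a small subunit of the enzyme that starts sphingolipid synthesis, was at 0.289, 0.522 and 0.336 CPM in KO and at 3.63, 7.04 and 6.78 CPM in WT organoids (log2 change -3.89, SE 0.49, edgeR adjusted p = 0.000121). Arntl2, a paralog of the clock factor BMAL1, was at 1.73, 1.04 and 1.15 CPM in KO and at 7.08, 7.26 and 6.87 CPM in WT organoids (log2 change -2.46, SE 0.24). KO and WT libraries did not overlap for any of these 3 genes with a fall, as the rule that named them required. Further falls were in the matricellular gene Smoc2 (log2 -2.21, SE 0.16), the basement membrane gene Fras1 (-2.05, SE 0.25), the dihydrodiol dehydrogenase gene Dhdh (-2.32, SE 0.30), the chitinase gene Chit1 (-2.08, SE 0.21) and Hal, for histidine ammonia-lyase (-1.62, SE 0.19). All of these falls remained called without any 1 of the 6 libraries.

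**Figure D2:**
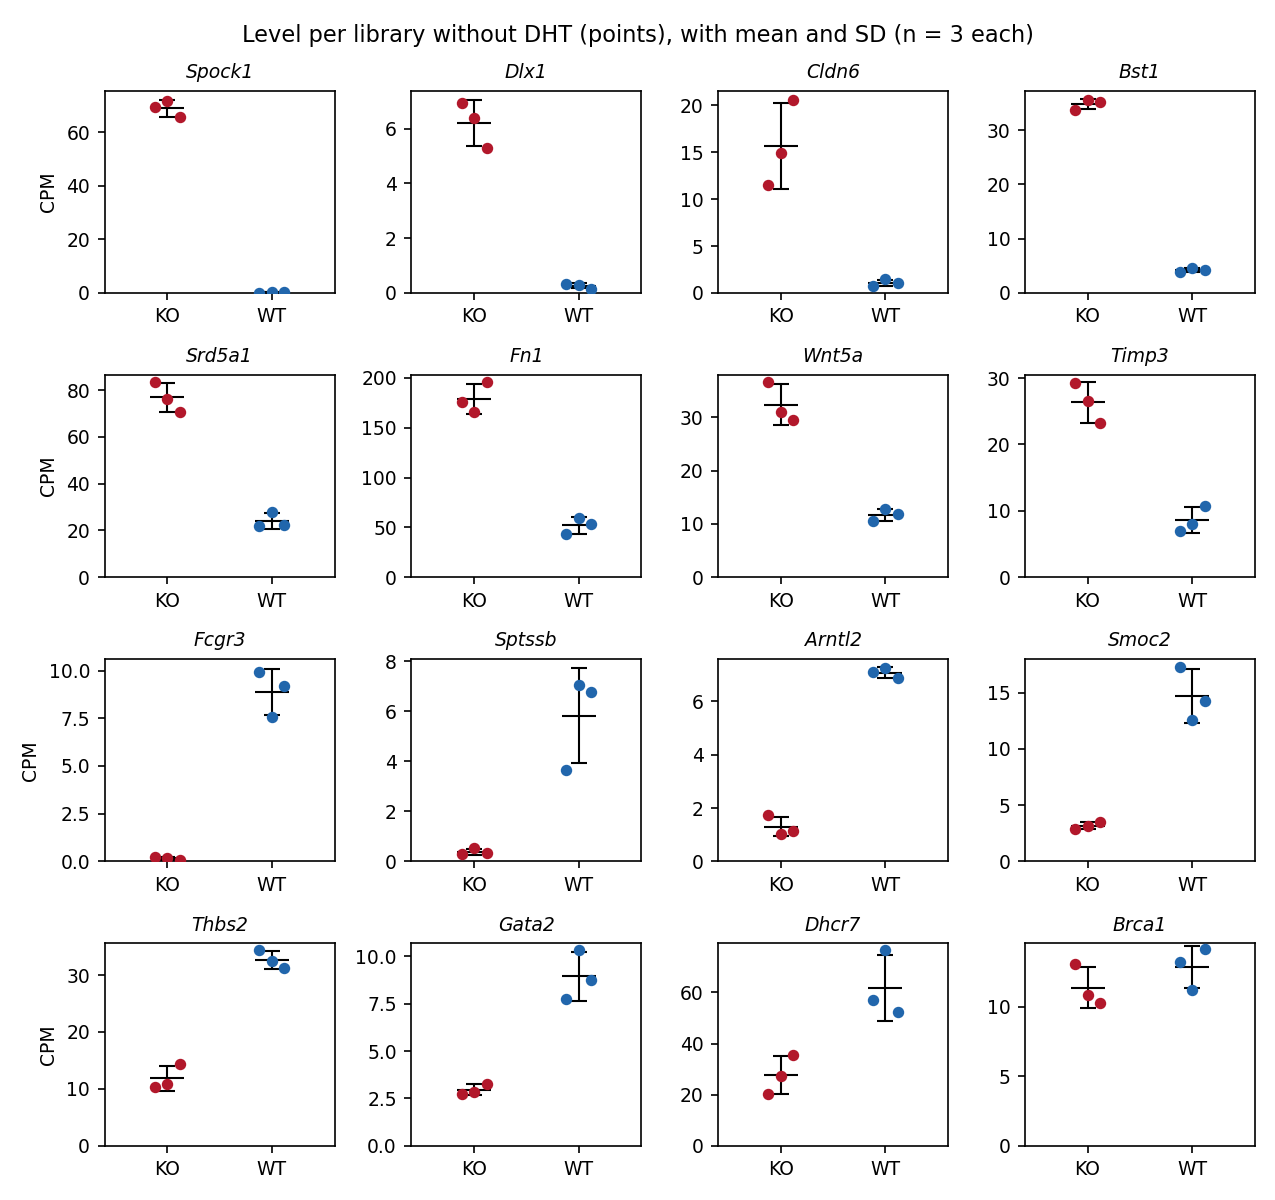
Level in CPM of 16 genes in each KO (red, left) and WT (blue, right) library without DHT, with the mean and SD (n = 3 each) in black and each axis starting at 0. KO libraries lie above all WT libraries for the first 8 genes and below them for the next 7, and Brca1 overlaps.

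In HET organoids without DHT some of these genes were near the KO level and some near the WT level. Spock1 was at 65.1, 54.2 and 47.5 CPM and Cldn6 at 11.8, 17.7 and 22.5 CPM in the HET libraries, like KO. Sptssb at 0.472, 0.372 and 0.239 CPM and Smoc2 at 2.0, 2.35 and 2.66 CPM in the HET libraries were also low. Fcgr3 at 5.19, 5.6 and 5.04 CPM and Kpna2, the nuclear import receptor gene described next, at 53.1, 72.2 and 64.8 CPM were high there. In prostate tissue, with 2 lobes a group and no test, KO and WT values overlapped for Fcgr3, with 6.51 and 5.62 CPM in the KO and 6.51 and 4.96 CPM in the WT lobes, and for Spock1, with 2.27 and 3.11 CPM in the KO and 2.43 and 7.21 CPM in the WT lobes.

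Several of the largest changes were in genes with near-identical copies elsewhere in the genome, between which a read can be assigned only by a few bases. Rpl34 encodes a protein of the large ribosomal subunit, Ftl1 the ferritin light chain that stores iron, Kpna2 an importin alpha, and Ahcy the enzyme that clears S-adenosylhomocysteine. Over the coding sequence, Rpl34-ps1 differed from Rpl34 at 2 of 351 bases and Gm10184 from Kpna2 at 2 of 1587. Gm4737 differed from Ahcy at 4 of 1296, and Ftl1-ps1, Ftl2-ps and Ftl1-ps2 differed from Ftl1 at 2, 7 and 12 of 549. The windows of 90 coding bases below show how little separates them. They are read 5′ to 3′ from the reference transcripts of the GENCODE annotation (GRCm38), with capitals at the bases that differ within a family.
Rpl34: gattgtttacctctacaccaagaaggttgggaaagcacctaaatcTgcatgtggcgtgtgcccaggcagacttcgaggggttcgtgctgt
Rpl34-ps1: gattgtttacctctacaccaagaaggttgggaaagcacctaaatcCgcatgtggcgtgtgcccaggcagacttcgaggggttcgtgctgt
Ftl1: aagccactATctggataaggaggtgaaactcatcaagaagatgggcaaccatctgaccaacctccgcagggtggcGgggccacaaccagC
Ftl1-ps1: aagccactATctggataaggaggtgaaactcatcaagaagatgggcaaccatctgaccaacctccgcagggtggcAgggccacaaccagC
Ftl2-ps: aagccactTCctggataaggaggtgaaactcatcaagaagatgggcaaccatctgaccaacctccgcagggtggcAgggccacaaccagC
Ftl1-ps2: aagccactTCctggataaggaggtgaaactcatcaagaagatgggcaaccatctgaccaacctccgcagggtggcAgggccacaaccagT
Kpna2: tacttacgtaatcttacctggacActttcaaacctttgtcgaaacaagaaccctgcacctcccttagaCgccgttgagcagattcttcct
Gm10184: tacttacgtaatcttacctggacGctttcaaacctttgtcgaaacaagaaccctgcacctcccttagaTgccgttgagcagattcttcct
Ahcy: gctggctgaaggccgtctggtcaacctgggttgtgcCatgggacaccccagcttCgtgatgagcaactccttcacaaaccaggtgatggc
Gm4737: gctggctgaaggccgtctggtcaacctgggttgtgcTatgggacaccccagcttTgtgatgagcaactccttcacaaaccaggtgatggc

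Parent and copy were read in different proportions in KO and WT organoids, while the totals of the Rpl34, Ftl1 and Ahcy families overlapped. Rpl34-ps1, on chromosome 6 from 71124610 to 71124963, had 3112, 8153 and 9268 reads in KO organoids and 2 reads in each WT library. Rpl34 itself, on chromosome 3, was at 147, 238 and 244 CPM in KO and at 401, 387 and 314 CPM in WT organoids. The family sum, with Rpl34-ps2, was 371.9 ± 82.6 CPM in KO and 368.4 ± 47.1 CPM in WT organoids (SD, n = 3 each), which is no difference beyond the replicate spread. The ferritin copies went the other way. Ftl2-ps on chromosome 4 had 0, 3 and 3 reads in KO and 7685, 7722 and 4523 reads in WT organoids. Ftl1-ps1 on chromosome 13 was at 6.19, 3.90 and 3.14 CPM in KO and at 480, 544 and 366 CPM in WT organoids. Ftl1-ps2 on chromosome 10 had 1, 0 and 10 reads in KO and 1270, 1272 and 1095 reads in WT organoids. Ftl1 on chromosome 7 was at 544, 1092 and 1326 CPM in KO and at 472, 567 and 360 CPM in WT organoids, and the sum of the 4 genes was 991.5 ± 400 CPM in KO and 1086 ± 224 CPM in WT organoids.

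Kpna2, on chromosome 11 from 106988629 to 106999541, was at 2.56, 2.42 and 2.59 CPM in KO and at 38.4, 35.6 and 37.1 CPM in WT organoids (log2 change -3.87, SE 0.17, edgeR adjusted p = 6.64e-10). Its copy Gm10184 on chromosome 17 was at 120, 94.4 and 89.6 CPM in KO and at 46.6, 45.7 and 47.6 CPM in WT organoids, and Kpna2 with both of its copies summed to 120.0 ± 2.4 CPM in KO and 95.9 ± 6.7 CPM in WT organoids. Ahcy was at 22.8, 35.8 and 37.1 CPM in KO and at 108, 103 and 82.8 CPM in WT organoids. Gm4737 was at 60.7, 69.0 and 74.1 CPM in KO and at 3.30, 7.85 and 13.7 CPM in WT organoids. Ahcy and Gm4737 together came to 99.8 ± 14.6 CPM in KO and 106.4 ± 8.5 CPM in WT organoids. Gm10184, Gm4737, Ahcy, Rpl34 and Ftl1 were named after their values were seen.

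In tissue, with 2 lobes a group and no test, the ferritin copies did not separate KO from WT. Ftl1-ps1 was at 574 and 5.68 CPM in the KO lobes, at 353 and 1.82 CPM in the WT lobes and at 2.86 and 537 CPM in the HET lobes. Rpl34-ps1 was at 0.0463 and 111 CPM in the KO lobes and at 138 and 264 CPM in the WT lobes. It was thus lower in the KO lobes without overlap, opposite to its direction in organoids. Kpna2 and Gm10184, each taken alone, also separated KO from WT lobes, but in the direction seen in organoids. Kpna2 was at 0.949 and 28.5 CPM in the KO lobes and at 97.7 and 51.4 CPM in the WT lobes. Gm10184 was at 74.6 and 34.5 CPM in the KO lobes and was listed at 0 in both WT lobes. In the HET lobes Kpna2 was at 30.5 and 39.9 CPM and Gm10184 at 20.5 and 42.2 CPM. In HET organoids without DHT, Rpl34-ps1 was at 120, 164 and 189 CPM as in KO, whereas Ftl1-ps1 was at 283, 491 and 654 CPM as in WT. Whether the copies themselves are transcribed was not tested.

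Of all 741 called genes, 78 had a transcript at least 95% identical over at least 50% of the shorter one with another gene at 1 CPM or more. Of these, 58 changed at least 2-fold, and for 36 of the 58 the family sum moved by less than 0.5 on the log2 scale. The 663 called genes without such a copy were 389 higher and 274 lower, and 187 and 72 of them changed at least 2-fold. The genes below are of this kind, save where a near-identical copy is named.

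**Figure D3:**
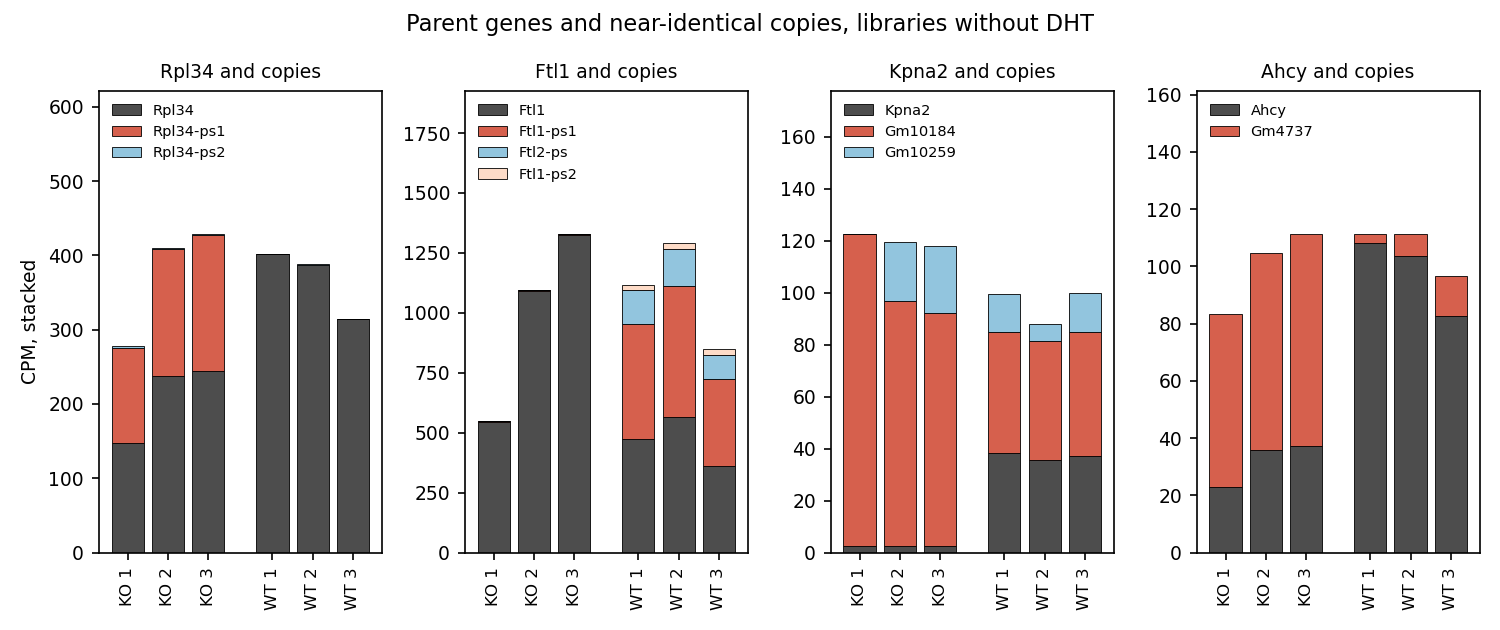
Stacked levels in CPM of 4 parent genes and their near-identical copies in the KO (left) and WT (right) libraries without DHT. Within each family the make-up of the bar differed between KO and WT, while its height overlapped for the Rpl34, Ftl1 and Ahcy families.

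Several genes of the mesenchymal and contractile program rose. Of the 21 list members tested, 8 were higher and 2 were lower in KO organoids (47.6% called, against 4.8% of all genes). The median log2 change was 0.29 against 0.00 over all genes. Summed over the list, KO libraries held 3148, 3031 and 3300 CPM and WT libraries 2515, 2565 and 2500 CPM. Fn1, which encodes the matrix glycoprotein fibronectin, was at 176, 165 and 195 CPM in KO and at 43.0, 59.3 and 53.7 CPM in WT organoids (log2 change 1.78, SE 0.15, edgeR adjusted p = 2.38e-06). Acta2, for smooth muscle actin, stayed low but was at 2.44, 4.44 and 3.54 CPM in KO and at 0.111, 0.526 and 0.368 CPM in WT organoids (log2 change 3.38, SE 0.41, edgeR adjusted p = 8.53e-05). The other rises, named after their values were seen, were in the contractile genes Tagln (log2 2.45), Myl9 (2.53) and Tpm1 (0.57), the intermediate filament gene Vim (1.01), S100a4 (0.84) and the matrix gene Tnc (0.42). Thbs2, for thrombospondin-2, fell to 10.4, 10.8 and 14.3 CPM in KO organoids, against 34.3, 32.4 and 31.1 CPM in WT organoids (log2 change -1.46, SE 0.15, edgeR adjusted p = 1.28e-05), and Smoc2 was the other fall.

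Of 12 stromal marker genes, 7 were tested and only Acta2 was called. Dcn, for the matrix proteoglycan decorin, was the most abundant, at 17.5 to 25 CPM in KO and 24.8 to 30.8 CPM in WT libraries, and the other 10 stayed under 1 CPM in all 6 libraries. The part of stromal cells in the mesenchymal list was not tested. Without KO 1, 7 of the mesenchymal genes were higher, and the count was lowest without WT 2, at 4. Fn1, Acta2, Thbs2 and Smoc2 remained called without any 1 of the libraries.

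Ligands and secreted modulators of the TGF beta and BMP pathway also rose, in a medium that blocks TGF beta receptors. Of 27 members, 6 were higher and 0 lower (22.2% called, against 4.8% of all genes). The median log2 change was 0.06, and it ranged from 0.03 (without WT 3) to 0.15 (without KO 1) when 1 library was left out. Ltbp1, which binds latent TGF beta in the matrix, was at 205, 190 and 184 CPM in KO and at 131, 132 and 129 CPM in WT organoids (log2 change 0.56, SE 0.07, edgeR adjusted p = 8.82e-05). Fst, for the activin antagonist follistatin, was at 13.9, 18.1 and 15.9 CPM in KO and at 5.94, 8.17 and 8.17 CPM in WT organoids (log2 change 1.1, SE 0.19, edgeR adjusted p = 0.00256). Both pairs of groups were separate. The ligand gene Tgfb2 (0.97), the activin subunit gene Inhbb (0.61) and the matricellular genes Ccn2 (0.56) and Ccn1 (0.54) made up the 6. Ltbp1 and Fst alone remained called in every case when 1 library was left out, and the count fell to 2 without WT 1 or WT 3. Without KO 1 the adjusted p of Tgfb2 was 0.16.

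Binding proteins of insulin-like growth factors rose as well, 4 of the 13 members of the IGF axis being higher. With 1 fall, 38.5% of that list was called, against 4.8% of all genes. Igfbp4 was at 35.8, 44.3 and 52.9 CPM in KO and at 28.0, 23.9 and 22.2 CPM in WT organoids (log2 change 0.84, SE 0.15, edgeR adjusted p = 0.00274). Igfbp7 (log2 0.64), Igfbp5 (0.82) and the scarce Igfbp2 (2.69) also rose, whereas Igf2r, the receptor that clears IGF2, fell (-0.39, SE 0.09, edgeR adjusted p = 0.0192). The count of rises was 2 without WT 1 or WT 2, and the call of Igf2r was lost without KO 1, KO 2 or any WT library (highest adjusted p = 0.0837, without KO 1). Among 26 matrix proteases and inhibitors 3 were higher and 2 lower (19.2% called). Timp3, an inhibitor of metalloproteinases, was at 29.2, 26.6 and 23.2 CPM in KO and at 6.94, 8.05 and 10.8 CPM in WT organoids (log2 change 1.62, SE 0.21, edgeR adjusted p = 0.000171). Of 25 collagens, laminins and other basement membrane genes, Nid1 was the 1 that was called, higher by log2 1.1 (SE 0.12, edgeR adjusted p = 5.05e-05). This share of 4.0% is close to that of all genes.

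Several feedback targets of canonical Wnt signalling fell, in cultures that all held R-spondin. Of 19 members 5 were lower and 2 higher (36.8% called, against 4.8% of all genes), and the median log2 change was -0.47. Apcdd1, for a membrane-bound Wnt inhibitor, was at 12.4, 12.1 and 13.9 CPM in KO and at 23.7, 23.1 and 22.2 CPM in WT organoids (log2 change -0.84, SE 0.10, edgeR adjusted p = 9.15e-05). Ephb2, an ephrin receptor induced by Wnt in intestinal epithelium, was at 18.1, 14.7 and 22.6 CPM in KO and at 40.4, 40.0 and 35.2 CPM in WT organoids (log2 change -1.06, SE 0.15, edgeR adjusted p = 0.000492). Znrf3 (-0.65) and Rnf43 (-0.47), the ligases that remove Wnt receptors, and the scaffold gene Axin2 (-0.59, SE 0.13) fell with them. KO libraries lay below all WT libraries for each of these 5 genes. Ccnd1 (0.36) and Dkk3 (0.53) were higher, and because Ccnd1 is abundant the summed level of the list ran the other way, at 3833, 3419 and 3226 CPM in KO and 3037, 3120 and 3140 CPM in WT organoids. Leaving out 1 library left 3 to 5 falls, the lowest without KO 2. Both rises were lost without KO 2, WT 1 or WT 3.

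Among 28 Wnt ligands and receptors, 2 were higher and 0 lower (7.14% called, against 4.8% of all genes). Wnt5a, a ligand best known for non-canonical signalling, was at 36.7, 31.1 and 29.4 CPM in KO and at 10.5, 12.8 and 11.9 CPM in WT organoids (log2 change 1.46, SE 0.13, edgeR adjusted p = 3.77e-06). The R-spondin receptor gene Lgr6 was higher by log2 0.72 (SE 0.15, edgeR adjusted p = 0.0109), a call lost without WT 3 (adjusted p = 0.0521).

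Genes of cholesterol synthesis had lower values in KO organoids. None of the 25 members had a log2 change above 0, and the median was -0.40. The 6 called were all lower (24.0%, against 4.8% of all genes). Their summed level was 2546, 2547 and 2419 CPM in KO and 3021, 3360 and 3119 CPM in WT organoids. Dhcr7, which makes cholesterol in the last step of its synthesis, was at 20.2, 27.3 and 35.5 CPM in KO and at 56.9, 76.5 and 52.2 CPM in WT organoids (log2 change -1.16, SE 0.24, edgeR adjusted p = 0.0102). Sqle, for squalene epoxidase, was at 102, 118 and 98.3 CPM in KO and at 142, 154 and 151 CPM in WT organoids (log2 change -0.49, SE 0.10, edgeR adjusted p = 0.007). The sterol carrier gene Stard4 (-0.55), Insig1 (-0.61) and Acat2 (-0.44), which has a near-identical copy, were also among the falls. Without KO 1 there were 3 falls and without WT 2 there were 2. Stard4 and Sqle remained called in every case, whereas Dhcr7 was lost without WT 2 (adjusted p = 0.061).

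Of 32 genes of the unfolded protein and integrated stress responses, 4 were lower and 0 higher (12.5% called, against 4.8% of all genes). The median log2 change was -0.18. Eif2ak3, the stress sensor PERK, was at 45.8, 48.7 and 46.3 CPM in KO and at 73.6, 62.4 and 66.6 CPM in WT organoids (log2 change -0.52, SE 0.07, edgeR adjusted p = 0.000318). Herpud1 of the degradation machinery of the endoplasmic reticulum (-0.60), the stress factor gene Atf3 (-0.92) and the phosphatase subunit gene Ppp1r15a (-0.59) also fell, and the count was 3 without KO 2 or WT 1. Of 31 genes of hypoxia and glycolysis, 4 were lower and 0 higher (12.9% called). None had a log2 change above 0, and the median was -0.29. The glucose transporter gene Slc2a1 was at 188, 198 and 225 CPM in KO and at 314, 349 and 254 CPM in WT organoids (log2 change -0.59, SE 0.13, edgeR adjusted p = 0.017). Vegfa (-0.49), Hk2 (-0.35) and Ndrg1 (-0.45) were the others. These 4 calls were fragile, with 1 left without KO 1 and 0 without WT 1 or WT 2.

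**Figure D4:**
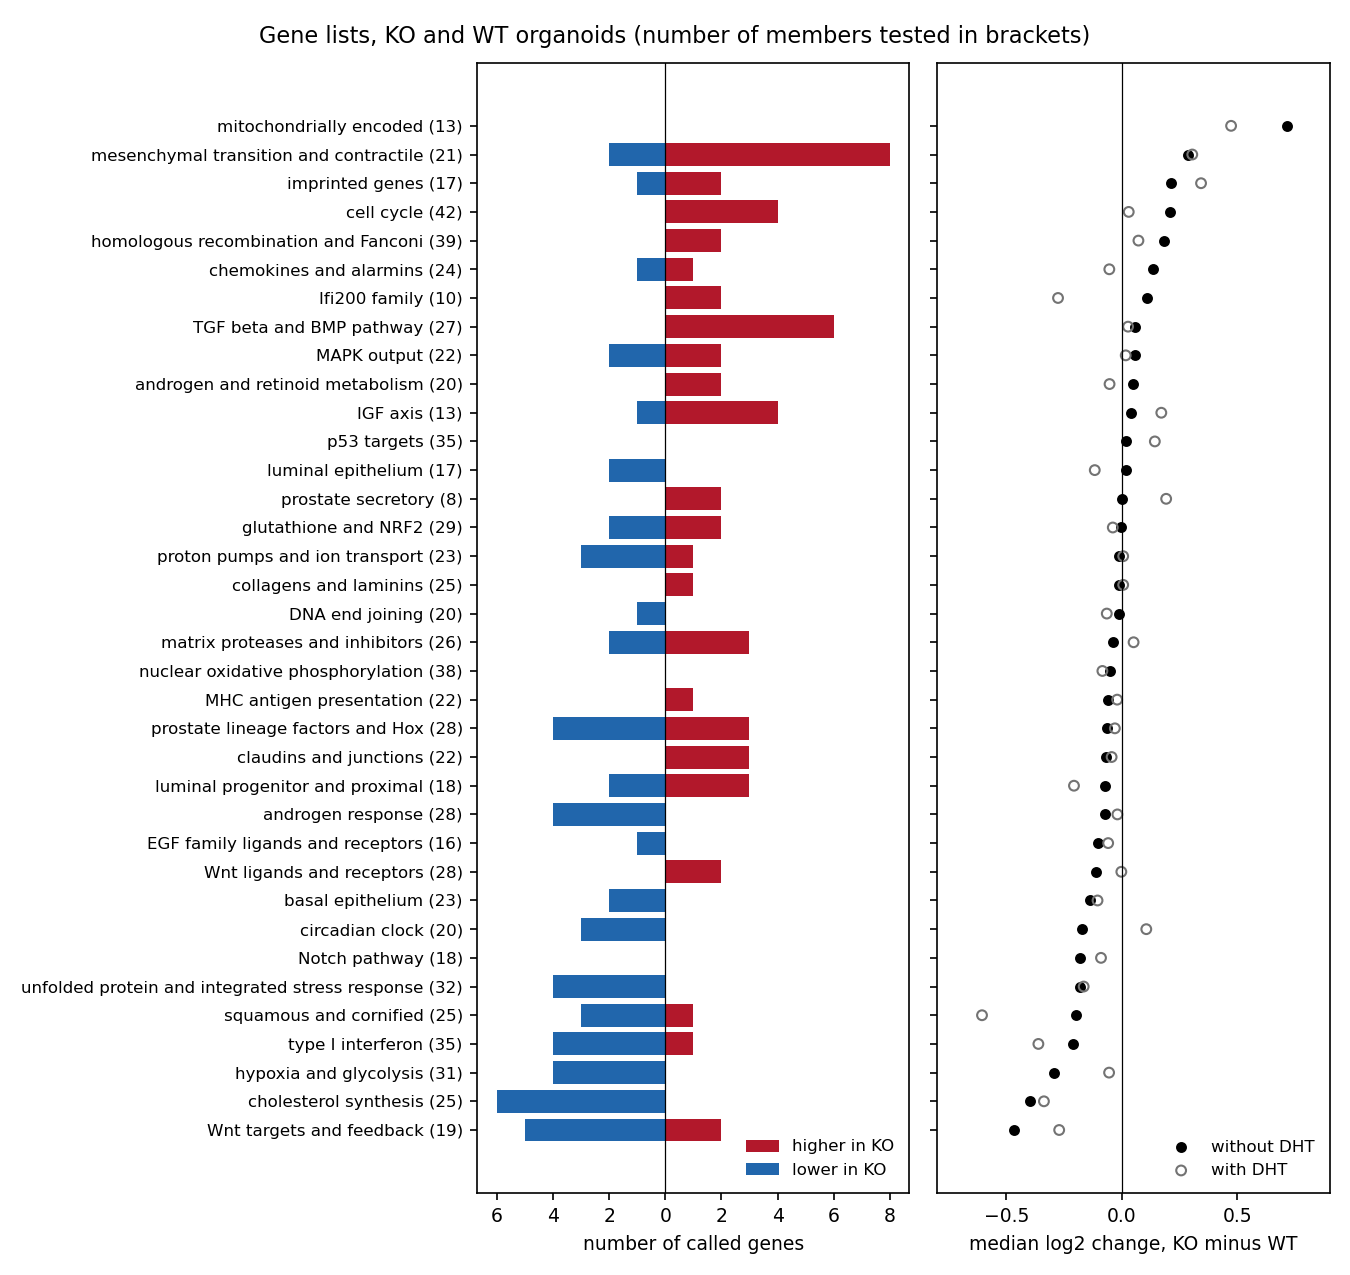
Gene lists in KO and WT organoids, with the number of members tested in brackets. Left, called genes without DHT, higher in KO to the right (red) and lower to the left (blue); right, median log2 change of the tested members, KO minus WT, without DHT (filled) and with DHT (open).

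Cell cycle genes had slightly higher values in KO organoids. Of 42 members 39 had a log2 change above 0, and the median was 0.21. In all 4 were called, all higher (9.52%, against 4.8% of all genes). The list summed to 3553, 3195 and 3029 CPM in KO and 2604, 2477 and 2726 CPM in WT organoids. The mitotic kinase gene Nek2 was at 24.1, 24.5 and 25.6 CPM in KO and at 17.6, 18.6 and 17.0 CPM in WT organoids (log2 change 0.48, SE 0.09, edgeR adjusted p = 0.00383). Kif20a, a kinesin of cytokinesis (0.39), the cyclin gene Ccnd1 (0.36) and the spindle checkpoint kinase gene Ttk (0.57) were the others. Without KO 1 there were 3 calls, without KO 2, WT 1 or WT 2 there were 2, and without KO 3 there were 8. Nek2 remained called in every case.

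Genes that act with Brca1 in homologous recombination and the Fanconi pathway showed 2 rises among 39 members, a share of 5.13% that is close to the 4.8% called over all genes. Chek2, a kinase of the DNA damage checkpoint, was at 37.4, 33.7 and 31.3 CPM in KO and at 18.9, 18 and 21.4 CPM in WT organoids (log2 change 0.81, SE 0.11, edgeR adjusted p = 0.000178). The count of rises was 1 without KO 2, KO 3, WT 1 or WT 2, and Chek2 remained called in every case. Brca2 and the Brca1 partner genes Bard1 and Palb2, named after their values were seen, had log2 changes of 0.41, 0.38 and -0.02 and did not pass the test. Lig3, a DNA ligase, was the 1 member of 20 in end joining to be called (log2 -0.32), a share of 5.0%, also close to that of all genes. The call was lost without KO 1 or any WT library (highest adjusted p = 0.0822, without WT 3). None of 35 p53 targets was called by edgeR, 5 had an unadjusted p under 0.05, and DESeq2 called 1 higher and 3 lower. Ccng1 was at 852, 625 and 436 CPM in KO and at 400, 443 and 516 CPM in WT organoids (log2 change 0.49, SE 0.23, edgeR adjusted p = 0.335), and its highest value came from KO library 1.

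RNA of a gene for an enzyme that makes DHT differed between KO and WT organoids. Srd5a1, for steroid 5-alpha-reductase type 1, whose locus overlaps Nsun2, was at 83.4, 76.4 and 70.8 CPM in KO and at 21.7, 27.9 and 22.2 CPM in WT organoids without overlap (log2 change 1.68, SE 0.12, edgeR adjusted p = 2.45e-07). The receptor genes Nr3c1, for glucocorticoids, Nr3c2, for mineralocorticoids, and Esr1 and Esr2, for estrogens, had log2 changes of 0.03, 0.40, 0.13 and -0.22, and none of these 4 was called by edgeR or DESeq2. Of them Nr3c2 alone had an unadjusted edgeR p under 0.05, at 0.0444. Cyp26b1, which breaks down retinoic acid, was higher by log2 0.44 (SE 0.09, edgeR adjusted p = 0.011), a call lost without WT 1 (adjusted p = 0.0589).

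Of 28 androgen response genes 4 were lower and 0 higher (14.3% called, against 4.8% of all genes). The median log2 change was -0.07, and it was -0.04 without WT 2. Zbtb16, a transcription factor gene, was at 1.53, 1.42 and 0.909 CPM in KO and at 2.38, 3.40 and 2.71 CPM in WT organoids (log2 change -1.15, SE 0.22, edgeR adjusted p = 0.00551). Ndrg1 (-0.45), Insig1 (-0.61) and the membrane protease gene Tmprss2 (-0.42) were the others. The calls were 2 without KO 3 and 1 without any other single library, and Zbtb16 remained in each.

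Lineage factors moved both ways. Gata2, for a zinc finger transcription factor, fell to 2.73, 2.84 and 3.28 CPM in KO organoids, against 7.77, 10.3 and 8.76 CPM in WT organoids (log2 change -1.60, SE 0.15, edgeR adjusted p = 8.96e-06). Hoxd12, Hoxd11 and Hoxd10, neighbours towards the 5′ end of the HoxD cluster, which patterns the urogenital tract, were higher. Hoxd12 was at 2.73, 2.38 and 3.50 CPM in KO and at 0.480, 0.586 and 0.217 CPM in WT organoids (log2 change 2.73, SE 0.33, edgeR adjusted p = 9.32e-05), and Hoxd11 (0.81) and Hoxd10 (0.64) lie beside it. Hoxb2 (-1.76), Hoxb9 (-0.65) and the epithelial factor gene Grhl3 (-0.42), named after their values were seen, were lower. Of the list of 28, 3 were higher and 4 lower (25.0% called, against 4.8% of all genes). Hoxd12 and Gata2 remained called without any 1 library. Hoxd11 lost its call without KO 1, KO 2, WT 1 or WT 2, and Hoxd10 without WT 1. The rises fell to 1 without WT 1, and the falls to 1 without WT 1, WT 3 or any KO library.

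Markers of the epithelial layers were called in shares of 11.8% (luminal), 8.7% (basal) and 27.8% (luminal progenitor and proximal), against 4.8% of all genes. Of 17 luminal markers 2 were lower, the transcription factor gene Elf3 (log2 -0.77, SE 0.17) and Prom1 (-0.39, SE 0.10), and 0 higher. Of 23 basal markers 2 were lower, the water channel gene Aqp3 (-1.05, SE 0.20) and the desmosomal cadherin gene Dsg3 (-0.50, SE 0.12). Krt8 was at 691, 897 and 1079 CPM in KO and 783, 818 and 668 CPM in WT organoids, and Krt5 at 1515, 1963 and 2405 CPM in KO and 2024, 2549 and 1712 CPM in WT organoids, so both keratins overlapped. Both luminal calls were lost without KO 1, WT 1 or WT 2, Prom1 also without KO 3 or WT 3, and Dsg3 without KO 2, KO 3, WT 2 or WT 3, whereas Aqp3 remained. Of 18 markers of luminal progenitors and the proximal ducts 3 were higher and 2 lower. The 2 lower ones were Prom1 and Aqp3, which are also the luminal and basal falls named above, so these lists are not separate. Lcn2, for the iron-binding lipocalin-2, was at 515, 678 and 719 CPM in KO and at 349, 323 and 308 CPM in WT organoids (log2 change 0.96, SE 0.13, edgeR adjusted p = 0.000306). Clu, for clusterin, was higher by log2 0.54 and lost its call without KO 3, WT 2 or WT 3 (highest adjusted p = 0.0879, without WT 3). Of 25 squamous and cornified envelope genes 1 was higher and 3 lower. Sprr1a rose (0.75, SE 0.15), and Dmkn (-0.90, SE 0.13), Krt16 (-0.67, SE 0.14) and Flg (-1.32, SE 0.29) fell, with 1 fall left without KO 2 or WT 2.

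Among immune genes, 4 of 35 type I interferon targets were lower in KO organoids and 1 was higher (14.3% called, against 4.8% of all genes). The median log2 change was -0.21, and it was -0.06 without WT 1. Mx2, of the antiviral GTPase family and annotated as a polymorphic pseudogene, was at 3.35, 3.15 and 3.16 CPM in KO and at 8.89, 5.72 and 7.56 CPM in WT organoids (log2 change -1.20, SE 0.20, edgeR adjusted p = 0.00207). Mx2 shares near-identical sequence with its neighbour Mx1, which also fell (-0.91, SE 0.20), and their sum was 6.78 ± 0.49 CPM in KO and 14.1 ± 2.5 CPM in WT organoids (SD, n = 3 each). Rsad2 (-0.89) and Stat2 (-0.50) fell, and Oasl1 (0.91) rose. Leaving out KO 2, KO 3, WT 1 or WT 3 left 1 fall, and leaving out KO 2, KO 3 or any WT library left no rise. The interferon-induced chemokine gene Cxcl10 fell to 2.27, 2.02 and 2.33 CPM in KO organoids, against 8.06, 5.04 and 4.86 CPM in WT organoids (log2 change -1.44, SE 0.31, edgeR adjusted p = 0.0112), a call lost without KO 2 or WT 1 (highest adjusted p = 0.0759).

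Of the 10 tested genes of the Ifi200 family, Ifi205 and Ifi211 alone were called. Ifi211 was at 43.1, 23.2 and 19.6 CPM in KO and at 6.44, 3.48 and 5.55 CPM in WT organoids (log2 change 2.47, SE 0.34, edgeR adjusted p = 0.000263). Both were highest in KO library 1, both share near-identical sequence with Mndal, Ifi211 also with Ifi204, and both remained called without that library. With those partners, the summed level was 26.7 ± 14.4 CPM in KO and 15.6 ± 5.2 CPM in WT organoids for Ifi205 (SD, n = 3 each). For Ifi211 it was 71.7 ± 35.3 CPM in KO and 40.1 ± 11.9 CPM in WT organoids (SD, n = 3 each). Both sums overlapped between KO and WT libraries. H2-Ab1, for a chain of MHC class II, was the 1 called gene of 22 in antigen presentation, a share of 4.55% that is close to that of all genes. It was at 6.44, 5.63 and 8.51 CPM in KO and 1.79, 2.53 and 1.76 CPM in WT organoids (log2 change 1.76, SE 0.24, edgeR adjusted p = 0.000257).

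The mitochondrially encoded genes all had a log2 change above 0, with a median of 0.71 over 13 genes, but none was called by edgeR or DESeq2, and 0 had an unadjusted p under 0.05. They summed to 103900, 40490 and 24070 CPM in KO and 27780, 29920 and 49890 CPM in WT organoids, so that KO 1 held most of the difference, and without it the median was -0.21. None of 38 nuclear genes of oxidative phosphorylation was called by either tool, and 0 had an unadjusted p under 0.05. With the mitochondrial share of reads in the fit, 16 cell cycle genes were called higher, and 14 cholesterol and 11 hypoxia genes lower. That fit called more genes in general, 1653 of 15427 (837 higher and 816 lower), against 741 without the share.

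The same comparison was available in other libraries of the same genotype labels, cultured with DHT. Of these, WT library 1 held 11938472 estimated reads in genes, and 28.09% of them were assigned to the gene Lars2. In the other WT libraries with DHT that share was 0.176% and 0.4591%. Without WT library 1, 562 genes were called with DHT. There 634 genes were called (4.11%), 390 higher (2.53%) and 244 lower (1.58%). Of the 436 genes higher without DHT, 434 had the same sign with DHT and 271 were called the same way. Of the 305 lower genes, 296 had the same sign and 159 were called the same way, and 0 were called in the opposite direction in either set. The median log2 change of the higher genes was 1.04 without and 0.95 with DHT, and that of the lower genes was -0.65 without and -0.52 with DHT. The genes had been selected by their change without DHT. Spock1 (7.59), Dlx1 (5.11), Bst1 (2.41), Fn1 (2.01), Srd5a1 (1.65), Wnt5a (1.51), Fcgr3 (-5.38), Sptssb (-3.47) and Gata2 (-1.54) were all called with DHT too. Whether the cultures of both media came from the same mice is not given.

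The difference between the changes in the 2 media was then tested itself. No gene passed (edgeR, adjusted over all genes), 417 had an unadjusted p under 0.05 (2.7%), and DESeq2 called 6. Smoc2 had the lower level in KO in both media, at 2.89, 3.15 and 3.50 CPM in KO and 17.3, 12.6 and 14.3 CPM in WT organoids without DHT, and at 3.00, 3.81 and 3.13 CPM in KO and 4.95, 5.38 and 6.51 CPM in WT organoids with DHT. The difference between its changes was -1.43 on the log2 scale (SE 0.23, edgeR adjusted p = 0.201). List medians moved both ways with DHT. That of squamous genes was -0.61 with DHT, and that of type I interferon targets was -0.36, both further from 0 than without. That of hypoxia and glycolysis was -0.06 with DHT, and that of the cell cycle was 0.03, with 0 members of either called there. Cholesterol synthesis kept a median of -0.34 with 4 genes lower, and the mesenchymal list a median of 0.30 with 4 higher and 2 lower. No test of a difference between the media was made for lists.

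**Figure D5:**
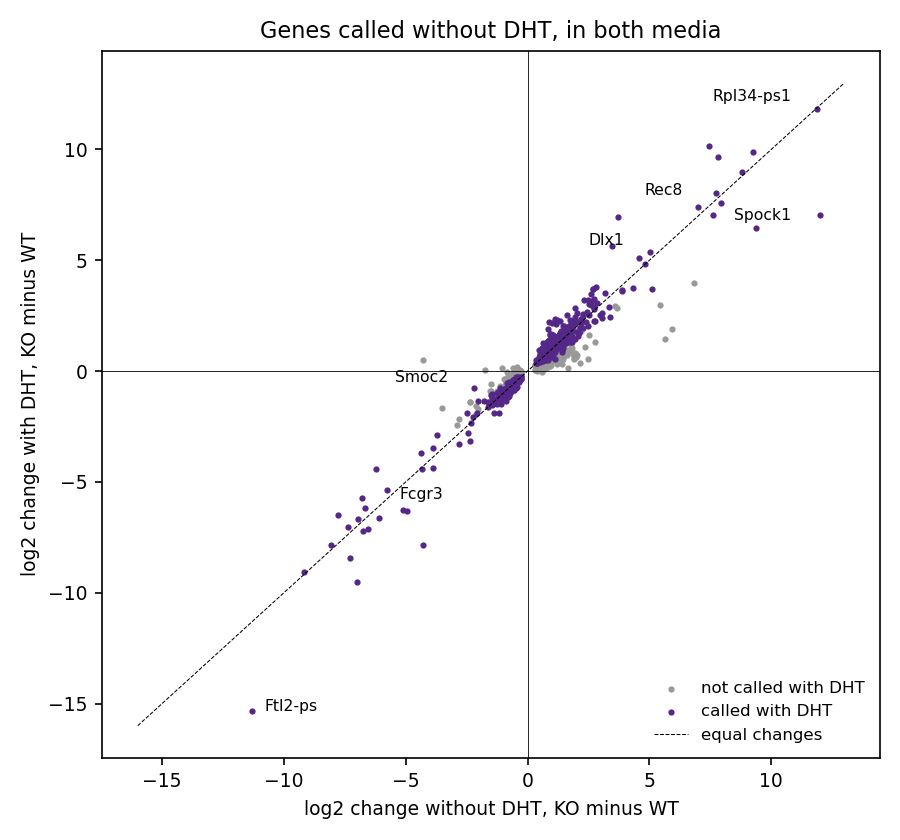
Log2 change, KO minus WT, of the 741 genes called without DHT, without DHT (horizontal) and with DHT (vertical). Purple genes were also called with DHT, grey genes were not, the dashed line marks equal changes, and most points lie in the 2 quadrants of equal sign.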

How the data were processed

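The authors deposited 1 table per library with estimated counts of reads and TPM (length-scaled transcript abundance) per transcript, per the file headers, quantified by Salmon (version 0.13.1 in the submitters' processing notes). Those notes name the human build hg38, whereas the deposited identifiers are mouse. The annotation behind the index, strandedness and read trimming are not given in the sources used here, so overlapping antisense genes cannot be told apart. TPM was used only for transcripts of Brca1. Estimated counts were summed per gene with GENCODE mouse M21 (GRCm38) and rounded. Of 116945 transcripts 922 had no gene there and were left out.

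Low-count genes were removed with filterByExpr, and 15427 genes were tested with edgeR 4.0.16 (R 4.3.3; TMM, quasi-likelihood F-test). The fit took all 18 organoid libraries, 1 mean per group, with 12 residual degrees of freedom and a biological coefficient of variation of 0.214. A gene was called at an adjusted p under 0.05 over all genes. Groups came from titles and genotype labels. The series text speaks of biological replicates without naming separate mice or cultures. The members of the comparison, the 43 gene lists and the rule for named genes were chosen with earlier results of these data known. The rule takes Brca1, steroid receptors, the 12 largest rises and falls of at least 5 CPM without overlap (predicted genes and clone names left out), and up to 4 called members per list, or the 2 most abundant. Named after their values were seen were also Krt5, Krt8, Ptprc, Rnf43, Dkk3, Acat2, Igfbp5, Inhbb, Ccn1, Stat2, Gstp2 and Gstp-ps. Near-identical copies were found with minimap2 2.31 between annotated transcripts. The test was checked on counts simulated for 15235 genes. It recovered 40 of 50 genes raised 2-fold, 38 of 50 lowered to 0.5-fold, and called 8 unchanged genes. Results for some genes are not reported here.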

Additional observations from a re-analysis of the deposited data

How the results depend on the processing

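Of 110 called genes named by rule, 62 remained called without any 1 of the 6 libraries, and none reversed its sign under any of the alternatives run. The number of genes called without DHT, 741, was 1164 with DESeq2 1.42.0, 1653 when the fit held the mitochondrial share of reads and 201 with the 6 compared libraries alone, which have fewer degrees of freedom. Of these 201 genes 199 were among the 741. With DHT, 634 became 989 with DESeq2 and 1381 with the covariate. The test of the difference between media, which called 0 genes, gave 6 with DESeq2, 3 with the covariate and 1 without the 3 libraries that stood apart, an alternative chosen after seeing the data. The causes were not tested. Leaving out 1 library gave 412 to 733 genes without DHT, 394 to 562 with DHT and 0 to 0 for the difference. In the fit on the 6 libraries alone, 0 genes of the cholesterol, hypoxia and stress response lists were called, and 3 of the mesenchymal list were higher. Without the 3 libraries that stood apart 882 genes were called without DHT and 935 with DHT. DESeq2 size factors, other low-count filters, offsets for transcript length and protein-coding genes alone gave 526 to 732 genes. The labels do not say whether equal replicate numbers pair the samples. The deviations of KO and WT libraries with the same number correlated at -0.0802, -0.0275 and -0.517, and those of other pairs between -0.383 and 0.48. As deviations within a group of 3 sum to 0, these values cannot settle a pairing. A fit with the replicate number as a block called 841 genes. Depth limits genes such as Myl9 and Igfbp2, which stayed under 1 CPM in all 6 libraries.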

Other observations

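Other gene groups held calls of their own. Of 17 imprinted genes 2 were higher and 1 lower in KO organoids (17.6% called, against 4.8% of all genes). Grb10, an adaptor that dampens insulin signalling, was at 5.12, 3.88 and 4.52 CPM in KO and at 1.18, 1.07 and 1.11 CPM in WT organoids (log2 change 2.0, SE 0.17, edgeR adjusted p = 2.55e-06). Of 29 genes of glutathione metabolism and the NRF2 response 2 were higher and 2 lower (13.8% called). Gstp1, a glutathione transferase gene, was at 198, 315 and 339 CPM in KO and at 133, 141 and 110 CPM in WT organoids (log2 change 1.15, SE 0.22, edgeR adjusted p = 0.00456). Its near-identical neighbour Gstp2 also rose (log2 2.19). The copy Gstp-ps went the other way, with means of 0.013 CPM in KO and 4.2 CPM in WT organoids (log2 -7.785). The 3 genes summed to 302.2 ± 78.2 CPM in KO and 136.3 ± 16.4 CPM in WT organoids (SD, n = 3 each). Among 23 genes of proton pumps and ion transport, 1 was higher and 3 were lower (17.4% called). The rise was in Car8 of the carbonic anhydrase family, at 124, 97.6 and 81.5 CPM in KO and at 46.0, 45.3 and 49.0 CPM in WT organoids (log2 change 1.11, SE 0.17, edgeR adjusted p = 0.000657).

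Among feedback genes of growth factor signalling, Spry4 was higher by log2 0.85 (SE 0.13, edgeR adjusted p = 0.000512) and the phosphatase gene Dusp1 was lower by log2 -0.77 (SE 0.17, edgeR adjusted p = 0.0175), a call lost without KO 1, KO 2 or WT 1 (highest adjusted p = 0.121). The neuregulin receptor gene Erbb3 was at 108, 125 and 138 CPM in KO and at 192, 185 and 176 CPM in WT organoids (log2 change -0.57, SE 0.10, edgeR adjusted p = 0.00279). Of 20 clock genes 3 were lower, Arntl2, Bhlhe40 (-0.48) and Arntl (-0.59), and Arntl2 alone remained called without any 1 library. None of 18 Notch pathway genes was called by edgeR, 4 had an unadjusted p under 0.05, and DESeq2 called 2 lower.

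Called genes lay beside each other in places. There were 95 pairs of neighbouring called genes within 100 kb, and in 69 of them both genes moved the same way, which is given as a count with no test. Serpina3g, Serpina3h and Serpina3i rose together, and Clca3a2 and Clca3b rose together (log2 1.51 and 1.56; Clca3a2 has a near-identical copy, Clca3a1). Crnn, Flg2 and Flg fell together (-0.91, -1.36 and -1.32), as did Mx1, Fam3b, Mx2 and Tmprss2 and, at the chemokine genes, Cxcl10 and Cxcl11 (-1.44 and -3.73). These runs were named after their values were seen. On chromosome 11, 29 of 534 genes within 20 Mb of Brca1 were called (5.43%), 8 higher and 21 lower, against 2.88% on the rest of that chromosome and 4.87% on the other chromosomes.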
